A study of Mus musculus with 24 samples.

Results

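Stromal cells of mouse colon were compared with stromal cells of mouse small intestine in the sorted fraction that carried neither CD31, the surface protein of endothelial cells, nor signal from an Rspo3 reporter. The 6 libraries were taken by their labels, 3 of colon and 3 of small intestine, out of 24 in the series. The colon group was CD31- Rspo3- stroma of colon from C57Bl6-background mice aged 8 to 12 weeks and carrying an Rspo3 GFP transgene, and the small intestinal group was CD31- Rspo3- stroma of small intestine from mice of the same ages and background. All groups had first been depleted of cells positive for the epithelial protein Epcam or for the leukocyte protein CD45. A second pair of groups, CD31- Rspo3+ stroma of colon and of small intestine with 3 libraries each, differs in being positive for the reporter and is used below to see where a tissue difference was shared. The reporter is a transgene, so the absence of GFP sorts on the transgene and not on Rspo3 itself. Nothing in the labels ties each library to its own mouse, so p-values here measure the spread between libraries, which may be technical. Each library is bulk RNA of a sorted population, so fewer cells of a type and less RNA per cell cannot be told apart.

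The CD31- stroma of the gut is mostly fibroblasts, with smooth muscle cells, pericytes and glia. Subepithelial fibroblasts high in Pdgfra are known as sources of BMP and non-canonical Wnt ligands for the epithelium of villus and crypt top, and fibroblasts low in Pdgfra as sources of R-spondins, canonical Wnt ligands and BMP antagonists around the crypt base. Along the gut, the position of a mesenchymal cell is recorded by its Hox genes, which lie in clusters and are expressed so that groups at one end of a cluster mark anterior and groups at the other end mark posterior positions. The colon has no villi, and its lumen holds most of the bacteria of the gut.

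The labels of the gates were checked first. Rspo3 stood at 15.6, 14.7 and 12.2 CPM (counts scaled to a common TMM-adjusted library total) in colon and 16.5, 16.4 and 13.1 CPM in small intestine, and its log2 fold change of colon over small intestine was -0.11 ± 0.22 SE, adjusted p = 0.790. Behind the reporter, in the Rspo3+ gate, it stood at 234, 267 and 139 CPM in colon and 327, 273 and 332 CPM in small intestine. Pecam1, which encodes CD31, stood at 10.2, 8.18 and 12.6 CPM in colon and 10.7, 16.3 and 13.03 CPM in small intestine, and Ptprc, which encodes CD45, at 0.680, 1.91 and 0.860 CPM in colon and 5.16, 6.94 and 3.95 CPM in small intestine; neither passed the test. Epcam was detected at 326, 101 and 249 CPM in colon and 594, 686 and 1069 CPM in small intestine although the cells were sorted against it, and did not pass (adjusted p = 0.215). With only the 6 libraries fitted, Epcam and Ptprc passed as lower in colon (adjusted p = 0.0149 and 0.0121). The summed level of 14 general fibroblast genes was 33437, 39959 and 33389 CPM in colon and 28222, 24330 and 20773 CPM in small intestine, so all 6 libraries held abundant fibroblast RNA.

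Epithelial RNA was present in both groups and was tissue-typed. The summed level of 16 general epithelial genes was 6135, 1686 and 4179 CPM in colon and 6281, 6655 and 10827 CPM in small intestine. The sum of 20 genes of small intestinal epithelium was 262, 80.2 and 180 CPM in colon and 23610, 21660 and 41866 CPM in small intestine, and that of 14 genes of colonic epithelium was 4092, 1130 and 2913 CPM in colon and 591, 720 and 917 CPM in small intestine. Colon library 2 was the lowest of the colon libraries in all of these sums, and small intestinal library 3 the highest of its group. In the Rspo3+ gate the general epithelial sum was 67.6, 207 and 235 CPM in small intestine, lower than in every small intestinal library of the Rspo3- gate. In colon it was 257, 58.3 and 2500 CPM, which overlapped the colon libraries of the Rspo3- gate. The part of this RNA in the tissue differences of single genes was not tested, and values of the Rspo3+ gate are given beside several genes that epithelium also expresses. Total counts were 10999032 to 26830199 for the 6 libraries, and the correlation of log2 CPM between libraries of a group was 0.965 to 0.979.

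**Figure D1:**
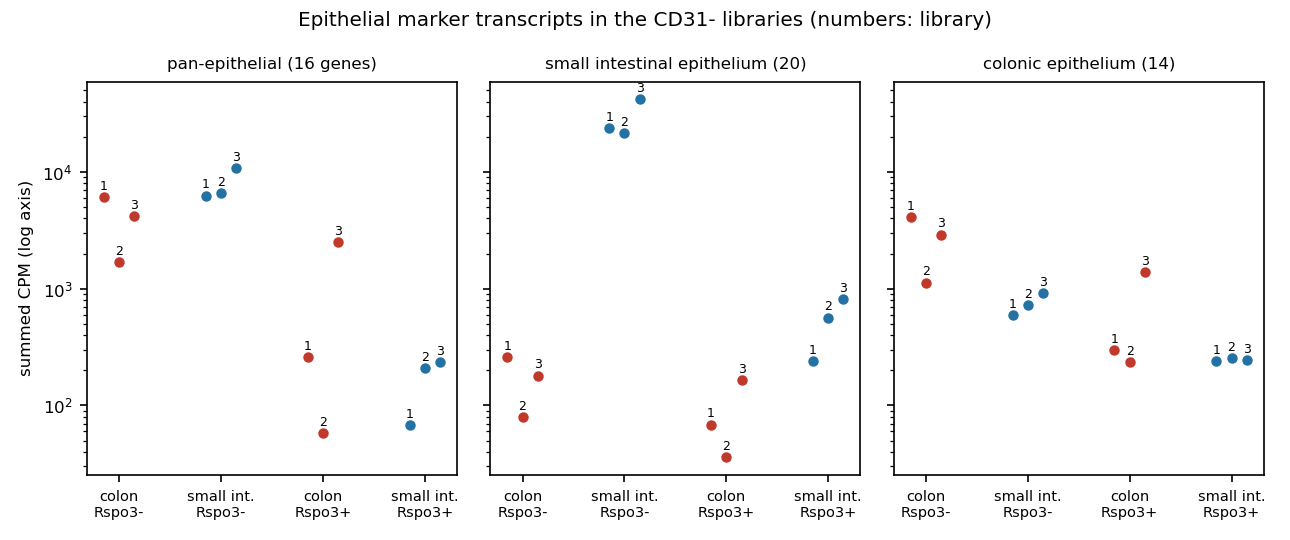
Summed level of the epithelial marker lists (CPM, log axis) in each library, a point numbered by library, of the CD31- Rspo3- and CD31- Rspo3+ gates, colon left of small intestine. In the Rspo3- gate the small intestinal epithelial sum is 262 CPM or less in colon and 21660 CPM or more in small intestine.

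Colon and small intestine differed in 3353 of 19050 genes tested, which is 17.6% (edgeR's quasi-likelihood test with Benjamini-Hochberg adjustment, adjusted p below 0.05). Of these, 1675 were higher in colon (8.79% of genes tested) and 1678 were lower (8.81%). The median log2 fold change over all genes tested was 0.10 with TMM scaling, 0.03 with the scaling of DESeq2, 0.16 with upper-quartile scaling and 0.23 on the deposited log2 TPM values. On those log2 TPM values the split of calls was 3696 higher and 1634 lower, or 69.3% higher against 50.0% here. Small changes in single genes are therefore read against this shift.

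Posterior Hox genes were on in colon and at or near 0 in small intestine. Of 12 tested members of Hox groups 9 to 13, 11 were higher in colon and none was lower, and the counts of the 3 colon libraries lay above those of all small intestinal libraries for all 12, against 39.2% of all genes tested whose groups did not overlap in either direction. Of 21 tested members of groups 1 to 8, 12 were lower in colon and 1, Hoxa7, was higher. The shares over all genes tested were 8.79% higher and 8.81% lower. The median log2 fold change was 8.74 for groups 9 to 13, or 7.15 with genes at or near 0 in one tissue set to their bound, and -2.12 for groups 1 to 8, or -1.71 at the bound, against 0.10 over all genes. Leaving out a library left 9 to 11 posterior calls, while the count of anterior genes lower in colon was 7 without colon library 3. A further 4 listed posterior and 2 listed anterior genes were below the filter on low counts.

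The 250 bases upstream of the start of 4 posterior and 2 anterior genes are shown as examples of genes of each kind that passed under every alternative, with the sequence from RefSeq on GRCm38.p6, written 5′ to 3′ on the gene's strand and with capitals marking CCAAT or GGGCGG on either strand.
Hoxa10, chr6:52240855-52241104, minus strand: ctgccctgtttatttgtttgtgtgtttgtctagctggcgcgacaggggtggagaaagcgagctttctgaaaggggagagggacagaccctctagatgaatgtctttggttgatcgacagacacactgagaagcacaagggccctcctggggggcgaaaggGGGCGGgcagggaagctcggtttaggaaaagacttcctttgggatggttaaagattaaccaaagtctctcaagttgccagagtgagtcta
Hoxa11, chr6:52245811-52246060, minus strand: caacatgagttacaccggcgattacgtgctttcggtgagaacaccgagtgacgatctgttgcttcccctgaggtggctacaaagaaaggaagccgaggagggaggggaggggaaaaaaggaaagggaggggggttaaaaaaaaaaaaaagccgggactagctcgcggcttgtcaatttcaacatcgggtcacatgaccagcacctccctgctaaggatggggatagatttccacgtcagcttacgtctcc
Hoxa13, chr6:52260881-52261130, minus strand: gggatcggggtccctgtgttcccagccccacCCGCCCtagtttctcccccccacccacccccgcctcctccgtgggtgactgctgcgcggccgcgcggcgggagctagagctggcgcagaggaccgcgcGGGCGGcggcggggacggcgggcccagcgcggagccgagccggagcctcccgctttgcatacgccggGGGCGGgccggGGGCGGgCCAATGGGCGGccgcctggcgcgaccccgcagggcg
Hoxd10, chr2:74691641-74691890, plus strand: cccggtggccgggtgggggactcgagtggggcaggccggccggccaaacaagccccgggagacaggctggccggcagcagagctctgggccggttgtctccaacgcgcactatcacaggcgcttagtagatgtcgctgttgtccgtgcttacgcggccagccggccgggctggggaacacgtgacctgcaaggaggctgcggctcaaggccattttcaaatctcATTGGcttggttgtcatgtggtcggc
Hoxa5, chr6:52204588-52204837, minus strand: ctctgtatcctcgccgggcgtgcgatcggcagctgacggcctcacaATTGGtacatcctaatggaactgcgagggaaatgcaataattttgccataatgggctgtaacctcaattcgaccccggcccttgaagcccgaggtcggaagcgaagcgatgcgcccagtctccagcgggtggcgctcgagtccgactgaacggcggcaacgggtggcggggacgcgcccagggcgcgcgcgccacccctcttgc
Hoxc4, chr15:103034145-103034394, plus strand: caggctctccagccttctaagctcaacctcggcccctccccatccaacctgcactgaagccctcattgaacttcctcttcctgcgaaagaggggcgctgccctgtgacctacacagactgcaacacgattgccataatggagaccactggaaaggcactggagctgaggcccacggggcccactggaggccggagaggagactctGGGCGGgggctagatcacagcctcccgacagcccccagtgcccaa

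The share of G and C was 51.6% for Hoxa10, 52.0% for Hoxa11, 80.0% for Hoxa13, 65.6% for Hoxd10, 63.6% for Hoxa5 and 62.0% for Hoxc4, against a median of 52.4% over 32851 windows of the same length. GGGCGG was found 5 times upstream of Hoxa13 and once each upstream of Hoxa10 and Hoxc4, and CCAAT once each upstream of Hoxa13, Hoxd10 and Hoxa5. Over all windows 32.7% held GGGCGG and 33.8% held CCAAT. Neither TATAAA, held by 12.4% of windows, nor TTTATG, held by 10.8%, occurred in the 6 windows on either strand, and the Hoxa11 window held none of the 4 motifs. The posterior and anterior genes shown did not separate by these letters, and a match is a description of the window only. For Hoxd10 the RefSeq start lies 33 bases from the GENCODE start.

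Among the posterior genes, Hoxa10 stood at 72.9, 66.6 and 64.2 CPM in colon and had no count in any small intestinal library. With a floor of 3 counts over the group, which like the other floors and intervals here covers counting error only, it was at least 1337-fold higher in colon (adjusted p = 5.46e-07). Hoxa11 stood at 40.1, 38.8 and 31.8 CPM in colon and also had no count in small intestine, so it was at least 731-fold higher (adjusted p = 1.59e-07). The same held for Hoxa13, with 16.1, 13.8 and 8.65 CPM in colon and at least 252-fold, and for Hoxd10, with 11.1, 10.3 and 11.8 CPM and at least 217-fold. Hoxd13 stood at 4.21, 4.03 and 4.25 CPM in colon and was at least 82.3-fold higher. All 3 colon libraries held each of these genes, and no small intestinal library had a count. The antisense transcript Hoxa11os stood at 33.2, 28.9 and 37.0 CPM in colon and 0.0692, 0 and 0 CPM in small intestine, a ratio of 971 with a 95% interval of 268 to 8019.6; the library kit does not keep strand, so its reads and those of Hoxa11 cannot be told apart where the transcripts overlap.

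Hoxb13 differed from the other posterior genes in its spread. It stood at 22.02, 3.96 and 16.6 CPM in colon, lowest in library 2, and had no count in small intestine, so it was at least 249.9-fold higher (adjusted p = 0.00318). Colonic epithelium also expresses it, and it is 1 of the genes in the colonic epithelial sum. Rspo3+ stroma had it at 1.07, 0.131 and 18.6 CPM in colon and 0, 0 and 0.0486 CPM in small intestine. Hoxb9 and Hoxc10 passed at low levels, with 2.29, 0.440 and 1.58 CPM and 1.05, 1.91 and 1.48 CPM in colon. Hoxb9 lost its call without small intestinal library 2 (adjusted p = 0.0513) or 3 (0.0728), and Hoxc10 without small intestinal library 1 (0.0882) or 3 (0.105) or colon library 2 (0.058).

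The anterior genes that fell kept counts in colon. Hoxa5 stood at 6.80, 5.83 and 4.64 CPM in colon and 44.9, 54.1 and 47.2 CPM in small intestine. The groups did not overlap (log2 fold change -3.08 ± 0.33 SE, adjusted p = 2.00e-06). Hoxc4 stood at 0.680, 0.550 and 0.382 CPM in colon and 15.1, 8.76 and 12.8 CPM in small intestine (-4.50 ± 0.60 SE, adjusted p = 4.37e-05). Its neighbour Hoxc5 stood at 0.557, 0.110 and 0.0478 CPM in colon and 16.1, 11.3 and 10 CPM in small intestine (-5.76 ± 0.76 SE, adjusted p = 3.52e-05). Hoxb5 stood at 7.42, 4.80 and 3.63 CPM in colon and 21.5, 30 and 21.2 CPM in small intestine (-2.20 ± 0.34 SE, adjusted p = 0.000137). Hoxa7 was the 1 anterior gene that passed in the other direction, with 12.2, 9.90 and 8.65 CPM in colon and 6.96, 6.11 and 6.27 CPM in small intestine (0.66 ± 0.22 SE, adjusted p = 0.0429), and it lost its call under 12 of 16 other settings; leaving out colon library 1 gave an adjusted p of 0.201, and small intestinal library 2 an adjusted p of 0.14.

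**Figure D2:**
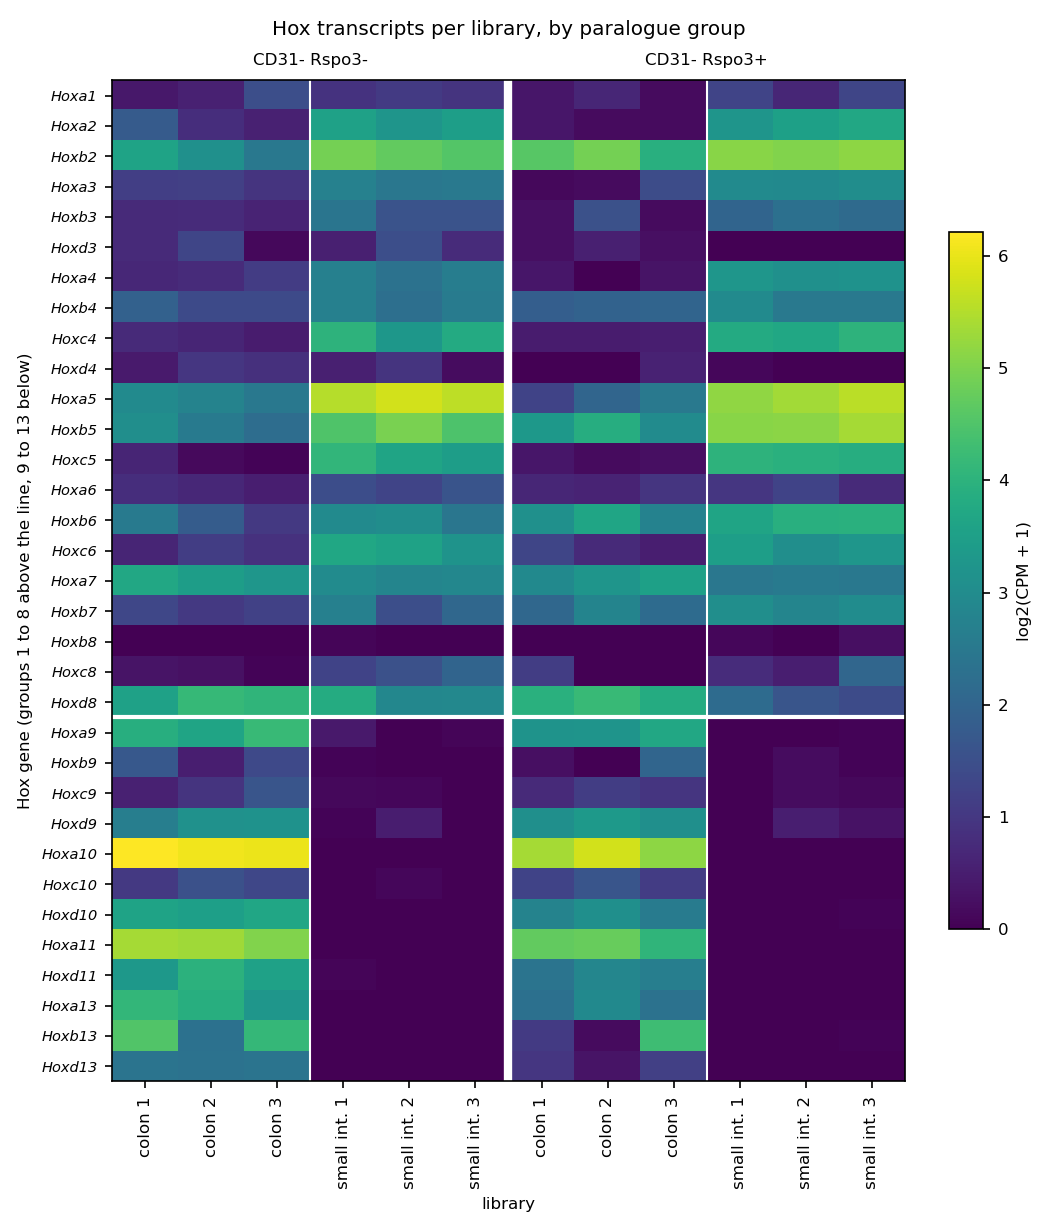
Level of each tested Hox gene (colour, log2 of CPM plus 1) in each library of CD31- Rspo3- stroma, left, and CD31- Rspo3+ stroma, right, with colon left of small intestine in each gate. Groups 9 to 13 are present in colon and near 0 in small intestine; Hoxa5, Hoxc4 and Hoxc5 run the other way.

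Beyond the Hox clusters, 8 of 37 tested transcription factors of gut mesenchyme were higher in colon, against 8.79% of all genes tested. Gata4 and Gata6 were among those lower. Pitx1, a homeobox factor best known from hindlimb and pituitary, with its gene at chr13:55825051-55836192 on GRCm38 as for the other gene positions given, stood at 199, 188 and 217 CPM in colon and 4.53, 3.14 and 3.73 CPM in small intestine. All colon libraries lay far above all small intestinal ones (log2 fold change 5.71 ± 0.60 SE, adjusted p = 1.59e-06). Isl1, a LIM-homeobox factor, stood at 31.1, 32.9 and 20.5 CPM in colon and 0.415, 0.992 and 0.162 CPM in small intestine (5.80 ± 0.73 SE, adjusted p = 2.18e-05). Twist1, a helix-loop-helix factor of mesenchymal cells, stood at 12.2, 11.3 and 9.17 CPM in colon and 0.311, 1.07 and 0.703 CPM in small intestine (4.01 ± 0.49 SE, adjusted p = 9.92e-06). Six2 stood at 3.84, 5.35 and 2.91 CPM in colon against 0.0692, 0.0826 and 0 CPM in small intestine, a ratio of 82.9 with a 95% interval of 28.1 to 404. Osr1, an odd-skipped factor, was present in both tissues at 87.8, 67.8 and 55.6 CPM in colon and 23.1, 19.5 and 17.9 CPM in small intestine (1.80 ± 0.32 SE, adjusted p = 0.000453), without overlap. The count of 8 was 13 with only the 6 libraries fitted, 14 with limma voom and 20 on the log2 TPM values.

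Gata4, a zinc-finger factor of proximal gut, stood at 0.495, 0 and 0 CPM in colon and 41.4, 32.8 and 63.6 CPM in small intestine (-8.28 ± 1.37 SE, adjusted p = 0.000249). Gata6 stood at 6.25, 3.45 and 3.82 CPM in colon and 22.2, 25.9 and 38.8 CPM in small intestine (-2.69 ± 0.66 SE, adjusted p = 0.00682). Small intestinal epithelium expresses both, and the epithelial sums of small intestine were lower in the Rspo3+ gate. In that gate Gata4 stood at 0, 0 and 0.0632 CPM in colon and 0.0808, 1.82 and 1.41 CPM in small intestine, and Gata6 at 1.76, 1.12 and 8.599 CPM in colon and 0.525, 1.18 and 2.77 CPM in small intestine. Neither passed there (adjusted p = 0.0654 and 0.240).

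Genes of 4 fibroblast lists were examined. Of 14 general fibroblast genes 2 were higher in colon, Thy1 and Mfap5, and 12 did not pass. Of 18 genes of Pdgfra-high subepithelial fibroblasts 4 were higher and 1 lower, of 16 genes of Pdgfra-low Grem1 fibroblasts 6 were higher and 1 lower, and of 11 genes of Adamdec1 fibroblasts of the lamina propria 6 were higher and 1 lower. Their medians were 0.58, 1.36, 0.50 and 1.37 on the log2 scale, against 0.10 over all genes. The shares called over all genes tested were 8.79% higher and 8.81% lower. Groups did not overlap for 15 of the 18 Pdgfra-high genes, against 39.2% of all genes tested, and other settings called up to 11 of the 18 higher. The summed Pdgfra-low list was 7176, 7626 and 7203 CPM in colon and 4400, 3770 and 3515 CPM in small intestine. Grem1, the BMP antagonist that names the second group, stood at 43.4, 81.3 and 62.4 CPM in colon and 56.0, 47.2 and 40.0 CPM in small intestine with overlap of the groups (0.39 ± 0.63 SE, adjusted p = 0.742). Pdgfra stood at 509.9, 692 and 601 CPM in colon and 467, 428 and 352 CPM in small intestine (0.53 ± 0.59 SE, adjusted p = 0.606). Without small intestinal library 3 the counts of higher genes were 1 for the general, 2 for the Pdgfra-high and 3 for the Adamdec1 list; the last was also 3 without small intestinal library 2, and the second also 2 without colon library 2.

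Thy1, the surface protein CD90, stood at 6.43, 7.52 and 8.601 CPM in colon and 1.00, 0.909 and 0.811 CPM in small intestine. The groups were far apart (3.03 ± 0.27 SE, adjusted p = 2.41e-07). In the Pdgfra-low list, Ly6c1 stood at 285, 260.3 and 309.8 CPM in colon and 25.02, 22.5 and 18.5 CPM in small intestine (3.69 ± 0.33 SE, adjusted p = 2.64e-07). Its relative Ly6a, which encodes Sca-1, stood at 899.9, 852 and 969 CPM in colon and 259, 179.6 and 153 CPM in small intestine (2.20 ± 0.31 SE, adjusted p = 4.18e-05); genes of this family are close in sequence and reads may be split between them. Pi16, which marks fibroblasts of the adventitia, stood at 195, 79.4 and 101 CPM in colon and 16.3, 15.4 and 14.8 CPM in small intestine (3.01 ± 0.57 SE, adjusted p = 0.000904). Dpp4, the peptidase CD26 with its gene at chr2:62330073-62412231, was the 1 member that fell, with 10.9, 4.44 and 4.64 CPM in colon and 305, 267 and 447 CPM in small intestine (-5.68 ± 0.60 SE, adjusted p = 1.41e-06). Small intestinal brush border also carries Dpp4, and in the Rspo3+ gate it stood at 14.04, 16.7 and 22.5 CPM in colon and 5.90, 9.17 and 11.6 CPM in small intestine (adjusted p = 0.275).

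In the Adamdec1 list, Procr, the endothelial protein C receptor, stood at 219.5, 258 and 307 CPM in colon and 44.4, 40.9 and 34.7 CPM in small intestine (2.71 ± 0.29 SE, adjusted p = 1.54e-06). Edil3, an integrin-binding matrix protein, stood at 131, 174 and 115 CPM in colon and 23.9, 20.3 and 26.3 CPM in small intestine (2.57 ± 0.52 SE, adjusted p = 0.00147). Ccl11, the eosinophil chemokine eotaxin, ran against the list, with 278, 396 and 496 CPM in colon and 1072, 1029 and 784 CPM in small intestine (-1.30 ± 0.30 SE, adjusted p = 0.00478). All 3 separated the groups without overlap. The summed Adamdec1 list overlapped between the tissues, at 6862, 10694 and 11313 CPM in colon and 11373, 9419 and 8680 CPM in small intestine, so the rise of 6 members did not show in the sum.

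**Figure D3:**
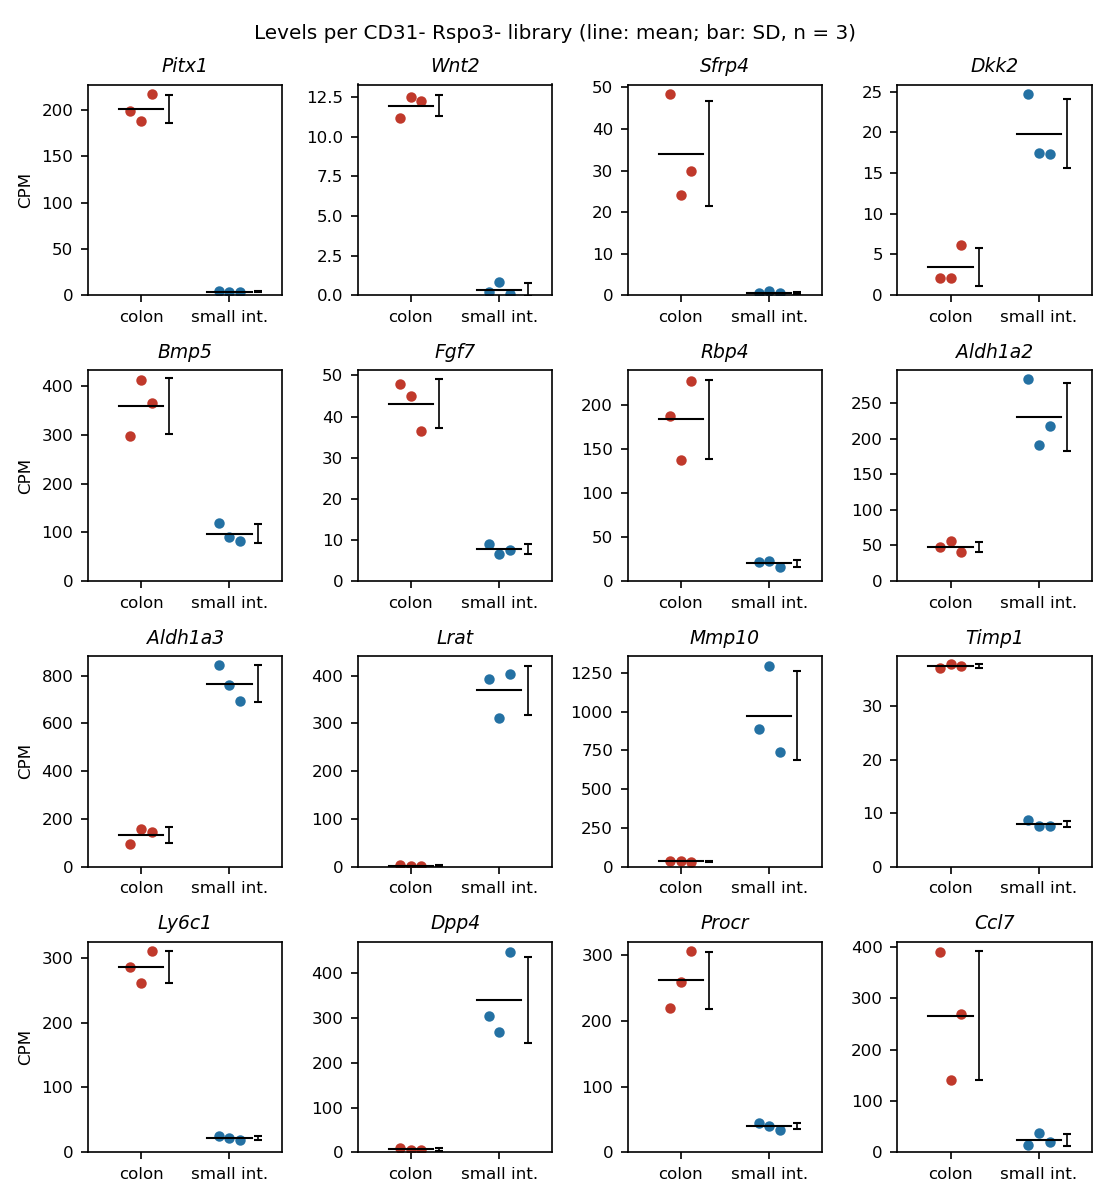
Level of 16 genes (CPM, linear axis from 0) in each CD31- Rspo3- library as a point, colon left of small intestine, with the group mean as a line and the SD of 3 libraries as a bar. No gene shown overlaps between the tissues; Aldh1a2, Aldh1a3, Lrat, Dkk2, Mmp10 and Dpp4 are lower in colon and the other 10 higher.

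Of 11 tested Wnt ligands 4 were higher in colon and none was lower, against 8.79% higher and 8.81% lower over all genes tested. Wnt2, a canonical ligand with its gene at chr6:17988940-18030585, stood at 11.2, 12.5 and 12.2 CPM in colon and 0.173, 0.826 and 0.0541 CPM in small intestine. It was under 1 CPM in every small intestinal library (5.35 ± 0.65 SE, adjusted p = 7.88e-06). The non-canonical ligand Wnt5b stood at 46.0, 61.0 and 51.7 CPM in colon and 12.0, 11.2 and 7.24 CPM in small intestine (2.38 ± 0.61 SE, adjusted p = 0.00984), a call lost without small intestinal library 3 (adjusted p = 0.0618). None of the 3 tested R-spondins passed in edgeR, where 1 had an unadjusted p below 0.05, and at most 1 passed with the other tools and settings. The count of Wnt ligands was 2 without small intestinal library 3 and 7 with limma voom.

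Among 10 secreted Wnt antagonists 3 were higher and 1 was lower, against 8.79% higher and 8.81% lower over all genes tested. Sfrp4, which binds Wnt proteins outside the cell, stood at 48.3, 24.1 and 29.9 CPM in colon and 0.415, 0.909 and 0.541 CPM in small intestine (5.81 ± 0.79 SE, adjusted p = 5.35e-05). Its relative Sfrp2 stood at 16.1, 12.9 and 10.2 CPM in colon and 0.588, 0.992 and 0.865 CPM in small intestine (4.01 ± 0.81 SE, adjusted p = 0.00262). Dkk2, which blocks the Lrp co-receptor, was the 1 that fell, with 2.17, 2.09 and 6.12 CPM in colon and 24.7, 17.4 and 17.4 CPM in small intestine (-2.52 ± 0.58 SE, adjusted p = 0.00431). Rspo3+ stroma had Dkk2 at 4.97, 3.08 and 2.34 CPM in colon and 172, 137 and 156 CPM in small intestine. Of 10 genes that respond to or feed back on Wnt signalling 2 were higher and 2 were lower: Lef1 stood at 4.08, 3.19 and 4.21 CPM in colon and 0.0692, 0.331 and 0.108 CPM in small intestine (4.56 ± 1.09 SE, adjusted p = 0.00587). Apcdd1, a membrane inhibitor of Wnt, stood at 17.8, 18.7 and 17.0 CPM in colon and 84.0, 44.0 and 67.6 CPM in small intestine (-1.87 ± 0.33 SE, adjusted p = 0.000506). The feedback genes higher in colon numbered 1 without small intestinal library 2 or 3.

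Of 11 BMP ligands and related genes, a list that also held Bmp1 and Gdf15, 4 were higher and none was lower. Those higher were Bmp4, Bmp5, Bmp6 and Gdf15. Of 11 BMP antagonists 4 were higher and none was lower. Over all genes tested the shares were 8.79% higher and 8.81% lower. Bmp5 stood at 299, 412 and 365 CPM in colon and 119, 89.98 and 82.6 CPM in small intestine, without overlap (1.88 ± 0.47 SE, adjusted p = 0.00767). Bmp4 stood at 423, 512 and 629 CPM in colon and 207, 215 and 154 CPM in small intestine (1.44 ± 0.38 SE, adjusted p = 0.0108), a call lost without small intestinal library 3 (adjusted p = 0.066). Among antagonists, Fstl1 stood at 856, 824 and 794 CPM in colon and 442, 362 and 299 CPM in small intestine (1.17 ± 0.19 SE, adjusted p = 0.000242). Chrdl2 stood at 18.2, 9.68 and 8.22 CPM in colon and 0.588, 0 and 0.432 CPM in small intestine (5.02 ± 1.17 SE, adjusted p = 0.00690). Both counts were 2 without small intestinal library 3; that of antagonists was also 2 without colon library 1 or 2, and 8 on the log2 TPM values. Of 12 hedgehog genes 2 were higher, among them Hhip, a hedgehog-binding target gene, at 429, 499 and 349.6 CPM in colon and 158, 57.3 and 105 CPM in small intestine (2.00 ± 0.35 SE, adjusted p = 0.000476); the other, Ptch1, lost its call without small intestinal library 2 or 3 or colon library 2 or 3, leaving a count of 1.

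Of 16 growth factors for epithelium 6 were higher and 1 was lower, against 8.79% higher and 8.81% lower over all genes tested. Fgf7, a keratinocyte growth factor, stood at 48.0, 45.0 and 36.5 CPM in colon and 8.96, 6.53 and 7.51 CPM in small intestine (2.49 ± 0.64 SE, adjusted p = 0.00951). Fgf9 stood at 22.6, 25.1 and 35.2 CPM in colon and 6.16, 6.69 and 6.05 CPM in small intestine (2.13 ± 0.55 SE, adjusted p = 0.00986). Hbegf, an EGF-receptor ligand, was the 1 that fell, with 81.2, 36.3 and 53.6 CPM in colon and 168, 145 and 246 CPM in small intestine (-1.71 ± 0.34 SE, adjusted p = 0.00149). None of these overlapped between the groups. Epithelium also makes Hbegf, and Rspo3+ stroma had it at 33.3, 24.5 and 52.7 CPM in colon and 34.9, 30.1 and 34.1 CPM in small intestine. The count of higher genes was 3 without small intestinal library 1, 2 without small intestinal library 3 and 3 without colon library 2. Of 14 genes of prostaglandin synthesis and reception 2 were higher, Ptger1 and Ptgir, to be set beside the same 8.79% over all genes. The count was 1 without small intestinal library 1 or 3 or colon library 1 or 3.

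Of 13 tested genes of retinoic acid metabolism 3 were lower in colon, 2 were higher and 8 did not pass, with a median of -0.48 on the log2 scale. The shares over all genes tested were 8.81% lower and 8.79% higher. Aldh1a2, which oxidises retinal to retinoic acid, stood at 47.9, 55.4 and 41.0 CPM in colon and 284, 190.5 and 218 CPM in small intestine. The groups were well apart (-2.26 ± 0.46 SE, adjusted p = 0.00164). Aldh1a3, which catalyses the same step and lies at chr7:66390890-66427517, stood at 96.8, 158 and 145 CPM in colon and 845, 763 and 692 CPM in small intestine (-2.52 ± 0.49 SE, adjusted p = 0.00116). Both were lower in colon in the Rspo3+ gate too, with 47.8, 40.6 and 29.7 CPM in colon and 234, 227 and 224 CPM in small intestine for Aldh1a2, and 51.0, 72.7 and 53.2 CPM in colon and 181, 236 and 191 CPM in small intestine for Aldh1a3. Rbp4, the secreted retinol-binding protein, stood at 187, 137 and 227 CPM in colon and 21.7, 22.5 and 15.8 CPM in small intestine (3.20 ± 0.45 SE, adjusted p = 4.18e-05). Rarg, a retinoic acid receptor, stood at 18.4, 19 and 13.3 CPM in colon and 6.09, 4.13 and 2.76 CPM in small intestine (1.96 ± 0.42 SE, adjusted p = 0.00254).

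Lrat, which esterifies retinol for storage and lies at chr3:82892579-82903973, was not in that list but was among the largest falls shared by both CD31- gates. It stood at 3.03, 1.39 and 1.29 CPM in colon and 394, 311 and 404 CPM in small intestine (-7.63 ± 0.63 SE, adjusted p = 9.88e-08). In the Rspo3+ gate it stood at 0.585, 0.328 and 2.47 CPM in colon and 359, 382 and 494 CPM in small intestine (-8.45, adjusted p = 2.42e-07).

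Chemokines moved in both directions, with 6 of 25 tested higher and 6 lower, against 8.79% higher and 8.81% lower over all genes tested. Ccl7, a monocyte chemokine, stood at 389, 140.0 and 268 CPM in colon and 14.6, 37.0 and 20.1 CPM in small intestine (3.48 ± 0.67 SE, adjusted p = 0.00103). Cxcl10, an interferon-induced chemokine of T cells, stood at 339, 312 and 382 CPM in colon and 157, 139.9 and 141 CPM in small intestine (1.24 ± 0.32 SE, adjusted p = 0.0101). Ccl25, the chemokine that draws lymphocytes to small bowel, stood at 5.88, 3.92 and 6.36 CPM in colon and 346, 413 and 635 CPM in small intestine (-6.43 ± 0.42 SE, adjusted p = 5.82e-09). Small intestinal epithelium is its known source, and in the Rspo3+ gate it stood at 5.56, 3.35 and 4.17 CPM in colon and 8.40, 13.6 and 14.9 CPM in small intestine. Cxcl16 stood at 56.7, 68.0 and 79.1 CPM in colon and 233, 218 and 246 CPM in small intestine (-1.78 ± 0.21 SE, adjusted p = 5.61e-06). The count of higher chemokines was 3 without small intestinal library 1 or 3 or colon library 1 or 3.

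Of 19 stromal cytokines 5 were higher and 3 lower, against 8.79% higher and 8.81% lower over all genes tested. Il6 stood at 186, 132 and 141 CPM in colon and 46.6, 48.3 and 61.0 CPM in small intestine (1.55 ± 0.37 SE, adjusted p = 0.00557). Il7, a survival factor for lymphocytes, stood at 17.4, 13.2 and 10.4 CPM in colon and 5.23, 7.85 and 4.05 CPM in small intestine (1.27 ± 0.28 SE, adjusted p = 0.00346). Tslp, an epithelial and stromal cytokine, stood at 6.06, 10.4 and 11.9 CPM in colon and 3.95, 4.96 and 3.08 CPM in small intestine (1.24 ± 0.28 SE, adjusted p = 0.00356). Il18, which epithelium also makes, was lower, with 23.6, 7.99 and 20.7 CPM in colon and 81.4, 101 and 163 CPM in small intestine (-2.72 ± 0.67 SE, adjusted p = 0.00754). None of the 4 overlapped between the tissues. Rspo3+ stroma had Tslp at 16.8, 22.4 and 15.7 CPM in colon and 13.2, 10.2 and 11.9 CPM in small intestine, and Il18 at 5.46, 5.90 and 15.7 CPM in colon and 3.76, 6.44 and 8.12 CPM in small intestine. The count of 5 was 3 without small intestinal library 1 or 3 or without any 1 of the colon libraries.

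Of 16 complement genes 3 were higher and 1, Cfi, was lower, and of 16 interferon-response genes 6 were higher and none was lower. The shares over all genes tested were 8.79% higher and 8.81% lower. Masp1, a protease of the lectin pathway, stood at 33.2, 51.2 and 36.3 CPM in colon and 6.44, 4.96 and 3.24 CPM in small intestine (3.04 ± 0.47 SE, adjusted p = 0.000117). Cd55, which shields cells from complement, stood at 539, 410.1 and 404 CPM in colon and 191, 179.9 and 174 CPM in small intestine (1.31 ± 0.31 SE, adjusted p = 0.00510). Irf1 stood at 586, 403 and 543 CPM in colon and 241, 250.1 and 302 CPM in small intestine (0.95 ± 0.20 SE, adjusted p = 0.00247). Ifit2 stood at 48.6, 40.1 and 30.4 CPM in colon and 15.5, 17.2 and 10.8 CPM in small intestine (1.46 ± 0.32 SE, adjusted p = 0.00306). The interferon count was 3 without small intestinal library 3 or colon library 1, and 3 with only the 6 libraries fitted.

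Immediate early and heat shock genes were higher in colon for 10 of 18 tested and lower for none. Egr2 stood at 207, 176 and 152 CPM in colon and 40.1, 48.6 and 38.8 CPM in small intestine, without overlap (2.07 ± 0.17 SE, adjusted p = 6.81e-08). Hsph1, a chaperone, stood at 201, 235 and 154 CPM in colon and 82.4, 75.4 and 35.6 CPM in small intestine (1.61 ± 0.32 SE, adjusted p = 0.00144). Dnajb1, a co-chaperone of Hsp70, stood at 569, 603 and 641 CPM in colon and 300.1, 262 and 219 CPM in small intestine (1.22 ± 0.25 SE, adjusted p = 0.00197). Hspa1a, which is nearly identical to Hspa1b so that reads may be split between them, stood at 4874, 6994 and 7119 CPM in colon and 1493, 682 and 358 CPM in small intestine (2.91 ± 0.71 SE, adjusted p = 0.00700). The share of counts from mitochondrial genes was 1.362%, 1.692% and 1.974% in colon and 3.487%, 2.668% and 4.82% in small intestine, without overlap, and its part in the difference was not tested. None of 16 cell cycle genes passed in edgeR (1 at an unadjusted p below 0.05, and at most 1 in either direction with the other tools and settings), and 10 of 18 and 0 of 16 compare with 8.79% higher over all genes.

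Smooth muscle genes were higher in colon for 8 of 12 tested, against 8.79% of all genes tested, and lower for none, with a median of 1.145 on the log2 scale. Cnn1, a thin-filament protein, stood at 283, 199 and 168 CPM in colon and 94.1, 65.9 and 78.2 CPM in small intestine (1.45 ± 0.32 SE, adjusted p = 0.00299). Tagln stood at 769, 667 and 638 CPM in colon and 366, 236 and 304 CPM in small intestine (1.20 ± 0.30 SE, adjusted p = 0.00777). Smtn stood at 234, 225 and 174 CPM in colon and 137, 115 and 116 CPM in small intestine (0.78 ± 0.16 SE, adjusted p = 0.00201). The sum of the list was 5549, 5159 and 4002 CPM in colon and 2740, 1821 and 2239 CPM in small intestine, without overlap. Of 6 tested genes of interstitial cells of Cajal 1, the chloride channel gene Ano1, was higher and 5 did not pass, against the same 8.79% over all genes. Other settings called up to 4 of that list higher. Ano1 stood at 125, 96.7 and 78.8 CPM in colon and 9.38, 12.97 and 13.03 CPM in small intestine (3.09 ± 0.50 SE, adjusted p = 0.000180). The count of 8 smooth muscle genes was 5 without small intestinal library 2 or colon library 1 or 2.

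Matrix genes were examined in 3 lists. Of 21 basement membrane genes 7 were higher and 1, Nid2, lower, of 26 other collagens 3 were higher and none lower, and of 22 matrix proteases and inhibitors 3 were higher and 1 lower. Over all tested genes 8.79% were higher and 8.81% lower. Lama5, a laminin chain of mature basement membrane, stood at 24.1, 44.8 and 34.5 CPM in colon and 7.16, 7.11 and 7.30 CPM in small intestine (2.26 ± 0.36 SE, adjusted p = 0.000161). Col4a5 stood at 143, 212 and 164 CPM in colon and 41.0, 26.4 and 20.8 CPM in small intestine (2.55 ± 0.53 SE, adjusted p = 0.00186). Col8a1 stood at 196, 141 and 155 CPM in colon and 27.6, 29.7 and 30.6 CPM in small intestine (2.48 ± 0.51 SE, adjusted p = 0.00186). Mmp10, the protease stromelysin 2 with its gene at chr9:7502352-7510240, stood at 38.7, 36.2 and 29.2 CPM in colon and 887, 1295 and 739 CPM in small intestine (-4.81 ± 0.50 SE, adjusted p = 1.14e-06). The inhibitor Timp1 ran the other way, with 37.2, 37.9 and 37.5 CPM in colon and 8.65, 7.68 and 7.57 CPM in small intestine (2.23 ± 0.30 SE, adjusted p = 3.23e-05). The basement membrane count was 4 without small intestinal library 2 or 3 or colon library 2, that of collagens was 1 without small intestinal library 2 or colon library 2, and Nid2 lost its call without small intestinal library 1 or colon library 1 or 3.

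**Figure D4:**
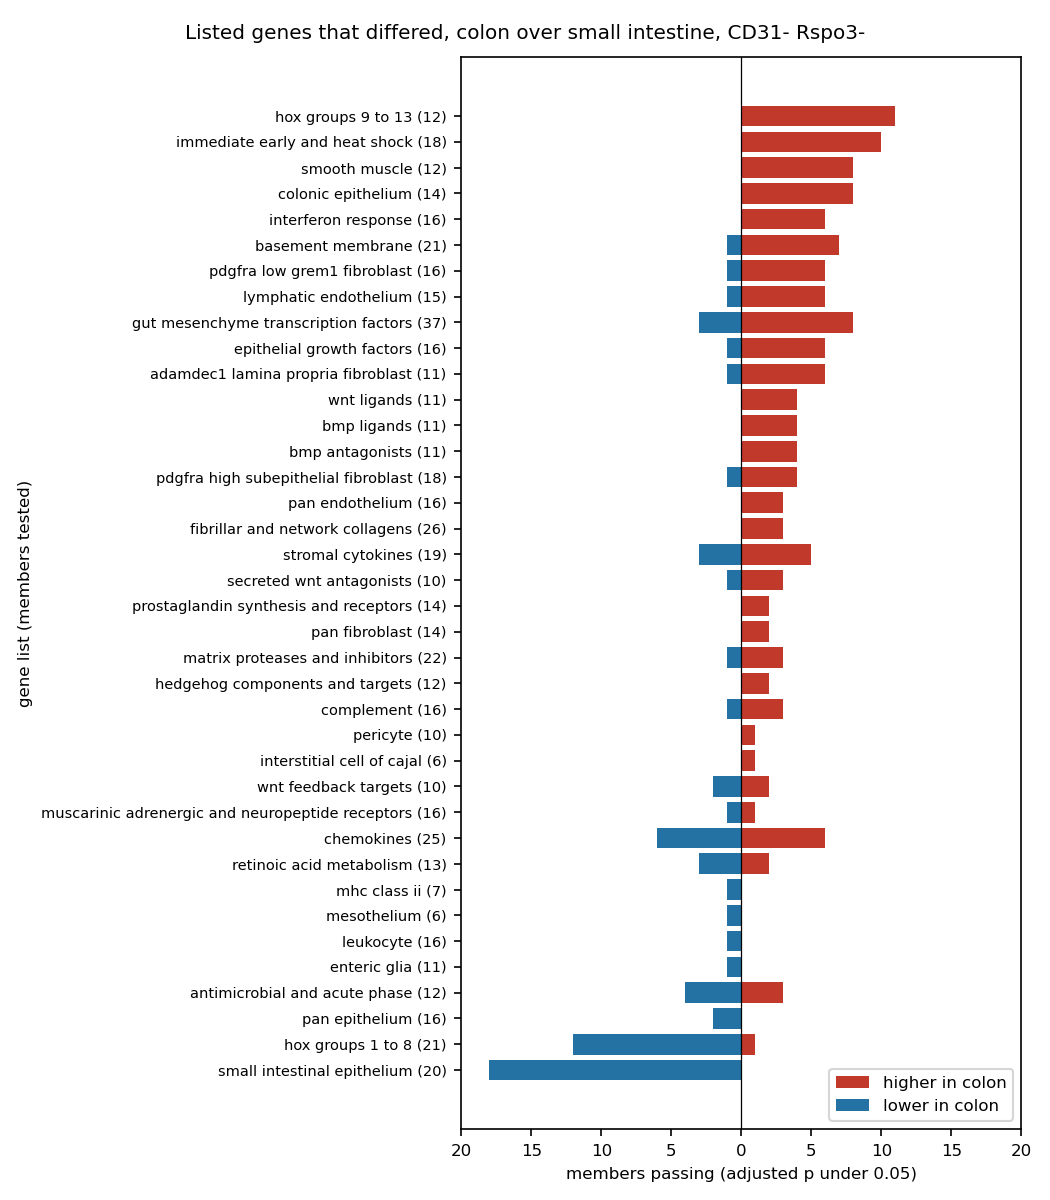
Number of members of each gene list higher (right of 0) and lower (left of 0) in colon at an adjusted p below 0.05, with the number tested in brackets. Lists with many calls include posterior Hox genes (11 of 12 higher), immediate early and heat shock genes (10 of 18 higher) and smooth muscle (8 of 12 higher). Small intestinal epithelium (18 of 20) and anterior Hox genes (12 of 21) lead among those lower, and chemokines have 6 in each direction. Over all genes tested 8.79% were higher and 8.81% lower.

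Markers of other cell types were counted against the same shares over all genes, 8.79% higher and 8.81% lower. Of 10 pericyte genes 1 was higher, of 11 enteric glial genes 1 was lower, of 10 enteric neuronal genes none passed, and of 10 plasma cell genes none passed. For the last 2 lists edgeR gave no unadjusted p below 0.05, and the other tools and settings called at most 2 genes in a direction. Of 16 leukocyte genes 1 was lower, and of 7 genes of MHC class II 1 was lower, H2-DMa. The summed MHC class II list was 1208, 446 and 1011 CPM in colon and 1905, 2343 and 2368 CPM in small intestine. Groups did not overlap for 6 of the 7 genes, against 39.2% of all genes tested. Without colon library 3 of the Rspo3+ gate 6 of the 7 passed as lower, and other settings that kept all libraries of this gate called up to 5. Of 16 general endothelial genes 3 were higher, among them Tek, a receptor for angiopoietins, with 54.0, 46.5 and 36.2 CPM in colon and 13.01, 3.80 and 9.19 CPM in small intestine (2.37 ± 0.31 SE, adjusted p = 1.57e-05). Of 15 lymphatic endothelial genes 6 were higher and 1 lower, at low levels for the defining gene Prox1, which stood at 1.36, 3.41 and 2.01 CPM in colon and 0.554, 0.578 and 0.486 CPM in small intestine, while Fgl2, which other cells also express, stood at 538, 481 and 397 CPM in colon and 80.5, 103 and 108 CPM in small intestine (2.28 ± 0.22 SE, adjusted p = 6.51e-07). Of 6 genes of mesothelium 1 was lower, and of 16 muscarinic, adrenergic and neuropeptide receptors 1 was higher and 1 lower. The summed endothelial list was 174, 176 and 133 CPM in colon and 90.4, 83.1 and 81.2 CPM in small intestine. The count of 3 endothelial genes was 1 without small intestinal library 1. The calls in the pericyte, glial and MHC class II lists and the receptor higher in colon were lost without small intestinal library 1 or 3 or colon library 1 or 2, among others, the leukocyte call without small intestinal library 3 or colon library 2 or 3, and the lymphatic gene lower in colon, Stab1, without small intestinal library 3.

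The largest falls in colon were genes of absorptive small intestinal epithelium. Of 20 tested genes of small intestinal epithelium 18 were lower and none was higher, with a median of -7.14 on the log2 scale, or -6.77 at the bound. The share lower over all genes tested was 8.81%. Mttp, which loads lipid onto apolipoprotein B, stood at 13.8, 11.7 and 13.2 CPM in colon and 1291, 1019.8 and 2026 CPM in small intestine (-6.81 ± 0.40 SE, adjusted p = 3.33e-09). Lct, the lactase of the brush border, stood at 0.495, 0.0367 and 0.621 CPM in colon and 408, 240.3 and 632 CPM in small intestine (-10.20 ± 0.71 SE, adjusted p = 1.38e-08). The 10 largest falls by the naming rule were Anxa13, Ocm, Hsd17b6, Cyp2c29, Pdzk1, Akp3, Treh, Slc30a2, Slc2a2 and Lct, and Anxa13 stood at 0.0619, 0 and 0.0478 CPM in colon and 65.1, 75.6 and 109 CPM in small intestine, a ratio of 2602 with a 95% interval of 720.0 to 21495. Small intestinal levels were lower in the Rspo3+ gate, where Mttp stood at 17.6, 16.5 and 10.1 CPM in colon and 38.1, 48.6 and 59.6 CPM in small intestine, and Lct at 0.0975, 0 and 0 CPM in colon and 4.44, 3.75 and 5.59 CPM in small intestine. Of 16 general epithelial genes 2, Vil1 and Cldn4, were lower in colon, 1 without small intestinal library 2 or 3 or colon library 1 or 3 and none without colon library 2, while other settings called up to 8.

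The largest rises included Car1, a carbonic anhydrase of colonic epithelium, which stood at 849.8, 225 and 970.3 CPM in colon and had no count in small intestine, so it was at least 12382-fold higher (adjusted p = 0.00262). Cyp2d34, a cytochrome P450 with close relatives, stood at 96.7, 22 and 51.3 CPM in colon and was at least 997-fold higher (adjusted p = 0.000308). Slc6a14, an amino acid transporter, stood at 204, 47.6 and 119.6 CPM in colon and 0, 0 and 0.162 CPM in small intestine, a ratio of 2185 with a 95% interval of 747 to 10596. Colon library 2 was the lowest for all 3, while for Hoxa10 and Hoxa11 library 3 was the lowest. Behind the reporter Car1 stood at 17.8, 4.99 and 309 CPM in colon and had no count in small intestine, and Slc6a14 stood at 4.39, 1.18 and 63.4 CPM in colon and 0, 0 and 0.0486 CPM in small intestine. Of 14 colonic epithelial genes 8 were higher, against 8.79% of all genes tested, and the count was 5 without small intestinal library 1. With limma voom Car1 did not pass (adjusted p = 0.0588).

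The microbial defence genes split by tissue as well. Of 12 antimicrobial and acute phase genes 3 were higher and 4 lower, against 8.79% higher and 8.81% lower over all genes tested. Reg3b, a lectin secreted by epithelium, stood at 237, 54.3 and 152 CPM in colon and 3925, 4724 and 4767 CPM in small intestine (-4.92 ± 0.94 SE, adjusted p = 0.000927), and has close relatives in Reg3a and Reg3g that also fell. Saa1, an acute phase protein with a near copy in Saa2, stood at 510.5, 98.8 and 229 CPM in colon and 0.138, 0.578 and 0.108 CPM in small intestine (10.20 ± 1.38 SE, adjusted p = 8.59e-05). For Saa1 the Rspo3+ gate had 15.996, 3.80 and 56.7 CPM in colon and 0.121, 0 and 0.146 CPM in small intestine. For Reg3b it had 26.4, 8.66 and 117 CPM in colon and 31.1, 113 and 81.7 CPM in small intestine.

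The same contrast in the Rspo3+ gate, which shares no library with this one, called 1337 genes (7.02% of genes tested), 689 of them higher (3.62%) and 648 lower (3.4%). Both contrasts came from the same fit, and the labels do not say whether both gates were sorted from the same mice. Of the genes higher in colon here, 327 were also called higher there, which is 19.5% of the 1675 and 47.5% of the 689. Of the genes lower here, 202 were also lower there, 12.0% of the 1678 and 31.2% of the 648. Calls ran in opposite directions for 40 genes higher here and 32 genes lower here. The CD31+ Rspo3- gate called 4.43% of genes tested (2.72% higher and 1.71% lower) and the CD31+ Rspo3+ gate 6.35% (2.83% higher and 3.52% lower), and in every gate of the series 49 genes were higher and 76 lower. The 76 held epithelial genes such as Fabp1, Apoa1, Sis and Lct beside Hoxc4 and Hoxc5. The 49 held Car1, Aqp4, Aqp8 and B3galt5 of the colonic epithelial list beside Hoxa10, Hoxa11 and Hoxa13. In the Rspo3+ gate 12 of 20 small intestinal epithelial genes were lower in colon and 10 of 14 colonic epithelial genes higher. The part of epithelial RNA in the shared counts was not tested. Posterior Hox genes were called higher in the Rspo3+ gate for 9 of 12, and anterior Hox genes lower for 8 of 21 and higher for 3.

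The tissue difference itself differed between the gates for 1597 genes, 8.38% of those tested, by an interaction test in the same fit. It was the more positive here for 662 genes (3.48%) and the more negative here for 935 (4.91%), a split of 41.5% more positive that became 470 and 1096 genes with DESeq2's scaling and 68.8% more positive on the log2 TPM values. Of 12 smooth muscle genes 8 passed the interaction test, all more positive here, and in the Rspo3+ gate 1 of the list, Hhip, was higher in colon and 4 were lower. Cnn1 stood at 59.6, 43.7 and 28.1 CPM in colon and 137, 103 and 127 CPM in small intestine in that gate, lower in colon (-1.48, adjusted p = 0.00622), and the interaction was 2.93, adjusted p = 0.000398. Gas6, a ligand of the Axl receptor, stood at 336, 442 and 495 CPM in colon and 179, 170.1 and 152 CPM in small intestine here (1.34 ± 0.16 SE, adjusted p = 5.02e-06). The Rspo3+ gate had 245, 297 and 244 CPM in colon and 445, 493 and 484 CPM in small intestine, again the reverse (-0.85, adjusted p = 0.00163, interaction 2.20, adjusted p = 5.61e-06). Osr1 was likewise lower in colon in the Rspo3+ gate, at 54.0, 57.6 and 50.3 CPM in colon and 133, 116 and 162 CPM in small intestine (-1.35, adjusted p = 0.0112, interaction 3.15, adjusted p = 0.000192).

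Among genes whose difference was the more negative here, Acsl5, a fatty acid activating enzyme, stood at 121, 101 and 100.2 CPM in colon and 1222, 1207 and 1766 CPM in small intestine here, against 129, 123 and 96.3 CPM in colon and 136, 141 and 153 CPM in small intestine in the Rspo3+ gate (interaction -3.40, adjusted p = 1.65e-07). Khk, the fructose kinase, stood at 5.38, 2.97 and 6.93 CPM in colon and 201, 199 and 335 CPM in small intestine here, against 6.05, 9.18 and 8.22 CPM in colon and 8.603, 9.76 and 15.3 CPM in small intestine there (interaction -5.08, adjusted p = 1.40e-06). Tle4, a co-repressor, fell here with 28.7, 27.5 and 26.3 CPM in colon and 47.2, 44.0 and 54.6 CPM in small intestine, and rose there with 35.3, 32.01 and 37.2 CPM in colon and 7.84, 9.65 and 10.5 CPM in small intestine (interaction -2.72, adjusted p = 3.78e-07). Small intestinal epithelium expresses Acsl5 and Khk, and the epithelial sums differed between the gates as given above. Without colon library 3 of the Rspo3+ gate, whose plasma cell sum of 31738 CPM stood apart from 2119 and 1836 CPM in the other two, the interaction counts were 415 and 606.

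**Figure D5:**
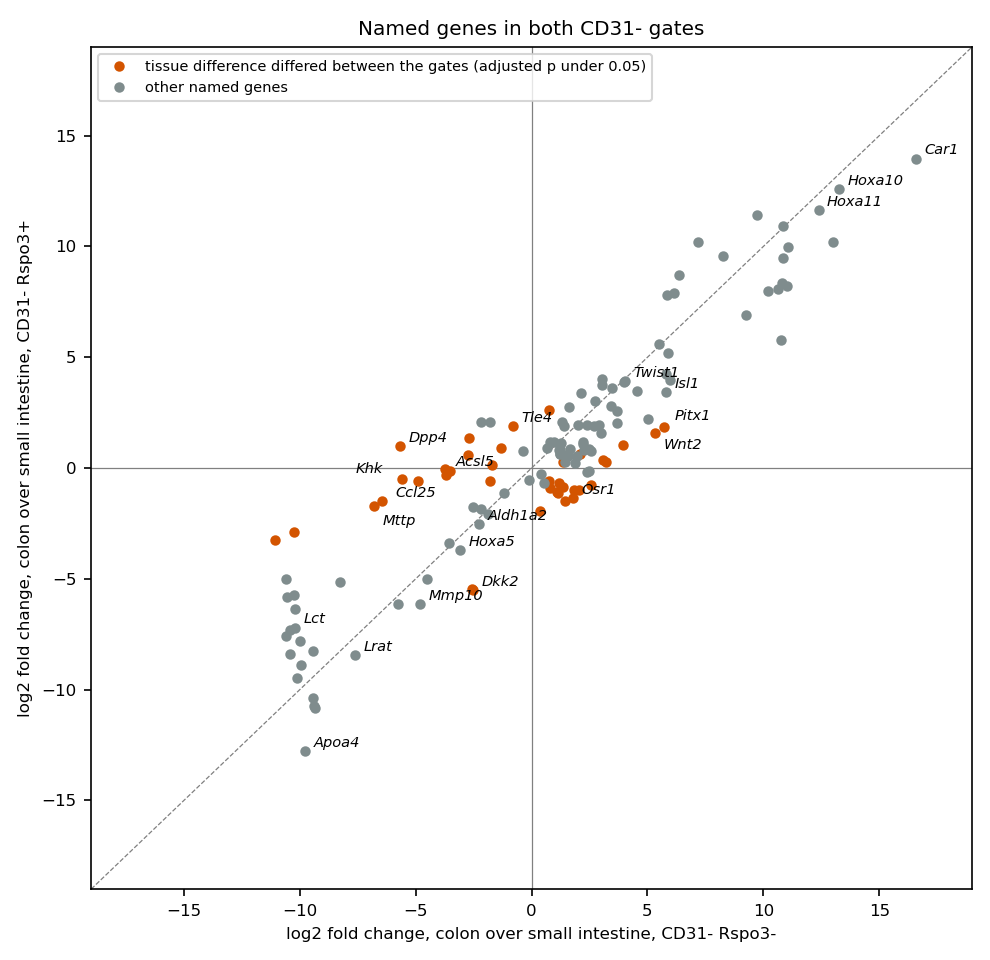
Log2 fold change of colon over small intestine in CD31- Rspo3+ stroma (vertical axis) against CD31- Rspo3- stroma (horizontal axis) for 137 named genes, one point each, with genes that passed the interaction test in orange, where fitted folds against a group at 0 depend on the prior count. Hoxa10, Hoxa11, Lrat and Mmp10 lie at the same sign in both gates, while Osr1, Tle4 and Dpp4 have opposite signs.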

How the data were processed

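Expression was measured by RNA-seq of sorted gut stroma, with libraries made from total RNA by a template-switching kit (SMART-Seq v4) that keeps no strand, per the labels' protocols. The authors deposited estimated counts per gene, which are whole numbers in the file, and log2 values of TPM plus 1. Salmon 1.3.0, R 4.0.1 and the mm10 build are named in the submitters' processing notes, without roles. Salmon shares reads among similar transcripts, so genes with near copies are uncertain.

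The estimated counts were analysed in edgeR 4.0.16 (R 4.3.3): all 24 libraries in one model with a mean for each of 8 groups, TMM factors, filterByExpr with a minimum count of 10 and a total of 15, which left 19050 of 54418 genes, and the quasi-likelihood F test with Benjamini-Hochberg adjustment over all of them, at 0.05. Total counts of the 24 libraries were 8462041 to 29214487. CPM uses TMM-adjusted totals. The scripts were tested on simulated data with 200 of 19050 genes changed between the compared groups. Of the calls at 0.05, 2.91% were false with edgeR, 12.9% with limma voom and 23.7% with DESeq2. There edgeR recovered 27% of 2-fold and 73% of 4-fold changes, so a gene that did not pass may still differ. Alternatives used DESeq2 1.42.0, limma 3.58.1 with voom or on the deposited log2 values, other factors, other filters, fewer libraries, totals without epithelial, plasma cell, haemoglobin and mitochondrial genes, and each library left out. Gene positions are from GENCODE M21 on GRCm38, where 54166 gene identifiers were found. Columns carried no replicate number, so libraries 1 to 3 of a group follow column order and only name a library.

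The genes and lists were chosen with earlier results of these data known. Some genes were in several lists and counted in each. Gata4 was in the small intestinal epithelial and transcription factor lists, and Hhip in the smooth muscle and hedgehog lists. Bmp5, Fgf9 and Nrg1 were in the Pdgfra-high list and a ligand or growth factor list, and Ccl11 in the Adamdec1 and chemokine lists. Genes named are the 3 list members with the smallest adjusted p in the leading direction and 1 in the other, the 10 largest rises and falls, the 10 largest shared with the Rspo3+ gate and the 5 with the smallest interaction p in each direction. The last 3 kinds were taken among genes with a mean of at least 10 CPM and a gene name. No overlap between the groups was also required for the largest and the largest shared changes, but not for the interaction genes. Further list members, such as Hoxd13, Hoxb5, Grem1 and Rarg, were chosen after their values were seen.

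One gene of the transcription factor list is not reported here.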

Additional observations from a re-analysis of the deposited data

Results flagged for a closer look

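The tissue difference of CD31- Rspo3- stroma and that of CD31- Rspo3+ stroma were set against each other by edgeR's interaction test, which called 662 genes more positive in the Rspo3- gate and 935 more negative. The genes listed next were chosen by the naming rule or, for some, after their values were seen. Among them, the difference between gates was positive on the log2 scale for smooth muscle genes (Cnn1 by 2.93, Actg2 by 2.83, Tagln by 1.87, Acta2 by 2.19, Mylk by 2.30 and Smtn by 1.69). The same held for the regional transcription factors Pitx1 (3.84) and Osr1 (3.15), and for signalling and matrix genes (Wnt2 by 3.74, Rbp4 by 2.93, Timp3 by 1.04 and Col4a5 by 3.34). The difference was positive as well for Hoxa4 (2.90) and Dkk2 (2.98), which were lower in colon in the Rspo3- gate and fell further in the Rspo3+ gate. It was also positive for Abi3bp by 3.01, Clec14a by 2.93, Ano1 by 2.71, Ppic by 2.29, Gas6 by 2.20, Egr2 by 1.45 and Fos by 1.36.

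It was negative for genes that small intestinal epithelium expresses, namely Anxa13 (-7.81), Slc30a2 (-7.38), Khk (-5.08), Mttp (-5.07), Reg3b (-4.36), Ccl25 (-4.93), Slc25a15 (-3.71), Bpnt1 (-3.40) and Acsl5 (-3.40). It was negative too for Dpp4 (-6.68), Gata6 (-4.05), Il18 (-3.29) and Hbegf (-1.87), which epithelium also expresses, as given above. Negative values were likewise found for Tle4 (-2.72), Ccl11 (-2.21), Hoxd8 (-1.88) and Cxcl16 (-1.21). Epithelial sums were higher in the Rspo3- gate than in the Rspo3+ gate in small intestine, and their part in these differences was not tested. Without colon library 3 of the Rspo3+ gate the call was lost for Hoxa4 (adjusted p = 0.0602), Gata6 (0.0535), Dkk2 (0.0716), Hbegf (0.0717), Il18 (0.111), Timp3 (0.0611), Anxa13 (0.583), Slc30a2 (0.991) and Reg3b (0.143) in edgeR's test. Of 38 named genes with such a difference 29 kept the call without that library and 27 kept it under every alternative. Hoxa4 lost it in 11 of 16 alternatives, Anxa13 in 7, and Hoxd8 (adjusted p = 0.0724) and Cxcl16 (0.0517) with limma on log2 TPM. Groups of 3 libraries were not tested for an outlying library.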

How the results depend on the processing

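No paired analysis was possible because the columns of the count table carry no replicate number. Of 137 named genes 129 passed, 120 of them under every alternative that gave a value (16 for most genes, 15 for Reg3b), 9 lost the call under at least 1, and none of the 129 had the opposite sign; Rspo3, which did not pass, had it in 1 alternative. The count of genes higher in colon was 1675, against 1107 with no filter on low counts, 3696 on log2 TPM and 876 to 1829 with a library left out. The count lower in colon was 1678, against 1090 to 1864 with a library left out; both were lowest without small intestinal library 3 (876 and 1090), that of higher genes was 1098 without colon library 2, and both were highest without colon library 3 of the Rspo3+ gate (1829 and 1864). In the Rspo3+ gate the count of higher genes was 689, against 1191 with DESeq2 and 432 on log2 TPM, where 32.5% of calls were higher against 51.5%. The interaction counts were 662 and 935: the first was 407 with no filter, 2352 on log2 TPM, 322 to 591 with a library left out (322 without small intestinal library 3, 348 without colon library 2) and 415 without colon library 3 of the Rspo3+ gate, an alternative chosen after seeing the data; the second was 1593 with DESeq2, 519 to 937 with a library left out (519 without small intestinal library 3) and 606 without colon library 3 of the Rspo3+ gate. The cause was not tested, apart from fewer libraries when 1 was left out. Depth limits genes with 3 counts or fewer over a group. For these a fold of colon against small intestine is given as a bound where the group had no count, and otherwise as a ratio with its interval.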
